A study of Xenopus laevis with 6 samples.

Results

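Sox genes encode transcription factors that bind DNA through an HMG box, and they were followed here in single gastrulae of Xenopus laevis, the African clawed frog, with and without dkk mRNA. They were taken as all rows of the deposited count tables whose name begins with sox and a number: 28 of 45099 gene rows. Control embryos (n = 3) were left uninjected, and dkk embryos (n = 3) had received 100 pg of dkk mRNA in the animal region at the 2-cell stage. Dickkopf is a secreted protein that blocks the Lrp5/6 co-receptors of Wnt ligands. All embryos were whole, were collected at stage 11.5 during gastrulation, and gave 1 library of polyadenylated RNA each. A dkk embryo and a control from 1 mating formed a sibling pair, and 3 matings gave 3 such pairs. No injected control was analysed here, so the effect of dkk and that of injection itself cannot be told apart. In whole embryos, fewer cells of a type and less RNA per cell cannot be told apart either.

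The family is divided into groups by sequence. In vertebrate embryos, SoxB1 genes such as sox2 mark the neural plate and keep neural progenitors undifferentiated, and SoxB2 genes such as sox21 act mostly as repressors on similar targets. SoxC genes (sox11) act in neuronal differentiation, SoxD genes (sox5, sox6, sox13) carry no activation domain of their own, and SoxE genes (sox8, sox9, sox10) act in the neural crest. Of the SoxF genes, sox17 drives endoderm formation, while sox7 and sox18 are best known from blood vessels and the heart. Sox17 protein binds β-catenin, the effector of canonical Wnt signalling, in Xenopus, and several other Sox proteins do so in other settings.

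Reads in genes numbered 17460820 to 19880568 per library, and Sox rows held 12277 to 18132 of them, or 0.0654% to 0.102%. Reads of dkk1.S, among which the injected message may be counted, had a mean of 15.2 CPM (counts per 1000000 reads in genes) without and 570 CPM with injection. The Wnt feedback gene axin2.L stood at 69.4 ± 21.5 CPM and 2.52 ± 2.60 CPM (SD, n = 3 each). The pan-mesodermal gene brachyury (t.L, 319 ± 13.4 CPM in controls) and the surface keratin krt18.S (196 ± 49.3 CPM) were read alongside sox17 and sox2, so mesoderm, epidermis, endoderm and neural ectoderm were all represented in the whole embryo RNA.

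The 28 rows are the 2 homeologs, L and S, of most genes, so that near-identical copies are counted apart. The row names sox2.1 and sox9.1 give no subgenome, and the 4 sox21-like rows are named only by likeness in the files. Of the rows, 22 passed the filter on low counts and were tested. The other 6 were the copies of sox10, a crest gene, of sox14, a SoxB2 gene, and of sox18. sox10.L and sox10.S had 0 to 10 reads per embryo, sox18.L and sox18.S 1 to 9, and sox14.L and sox14.S 0 to 4, where a count of 0 allows a true mean of up to 3 reads. No change in these 6 rows was detectable at this depth. Other Sox genes, among them sox1, sox3, sox4, sox12 and sox15, had no row under those names and were not analysed here. The only SoxB1 row was therefore sox2.1.

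None of the 22 tested Sox rows passed the threshold for a change in dkk embryos (adjusted p under 0.05, edgeR quasi-likelihood test with the mating pair as a block, Benjamini-Hochberg adjustment over 21643 genes). Over all tested genes 0.573% passed, 0.106% higher and 0.467% lower. Adjusted p-values given below come from the same adjustment over all features tested. DESeq2 and limma-voom also called 0 Sox rows. At an unadjusted p under 0.05 edgeR had 2 Sox rows higher, sox2.1 and sox7.L, and 0 lower. At the same level limma-voom had 2 Sox rows and DESeq2 1, all of them higher. The edgeR background at that level was 3.63% of genes higher and 4.19% lower. The median log2 fold change of the 22 rows was 0.09, against 0.00 (-0.00131) over all tested genes, and the changes ran from -0.49 to 0.74. In the authors' deposited table of 97 genes from their own comparison, 0 were Sox rows. The smallest absolute log2 fold change in that table was 1.02, beyond the changes of all 22 Sox rows here. The absence of Sox rows from it is therefore no separate evidence.

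**Figure D1:**
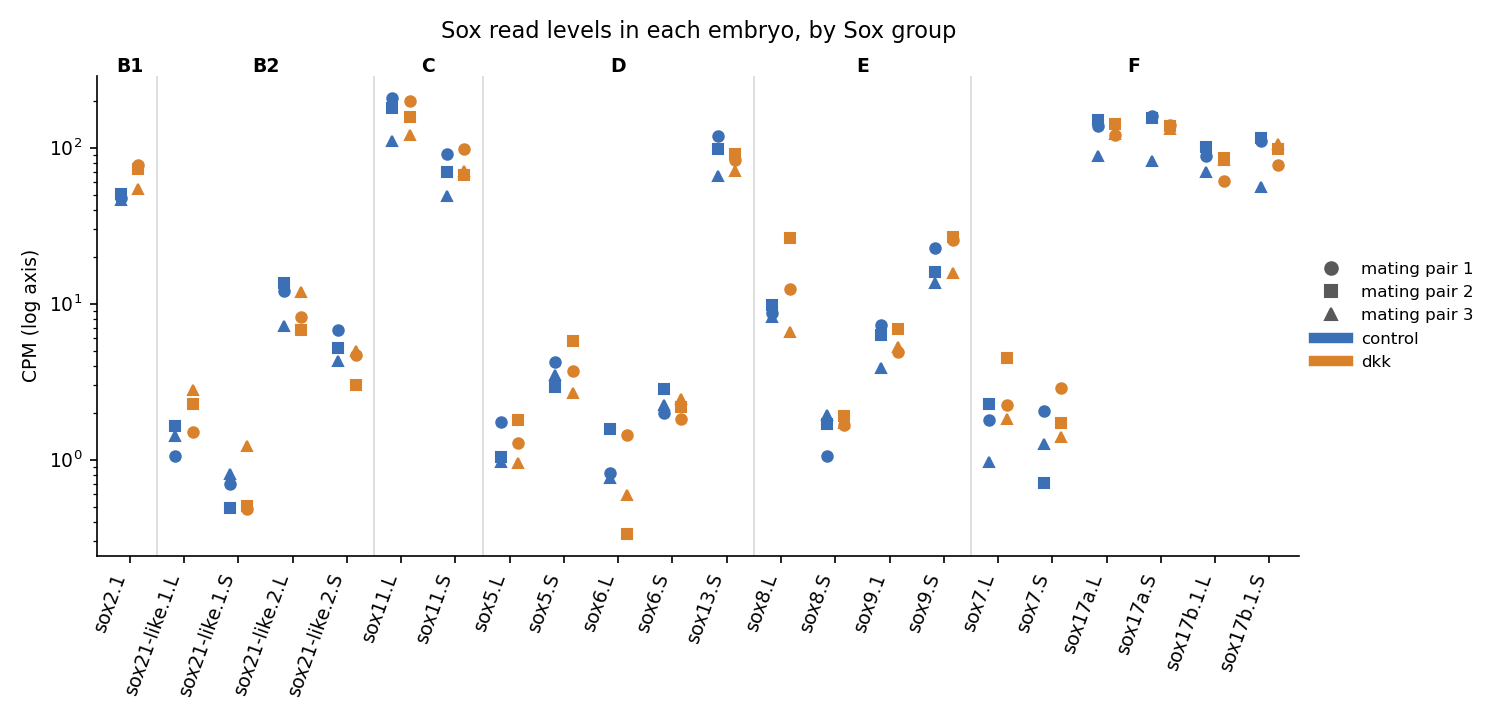
Read level of each tested Sox row in CPM (log axis) in the 3 control embryos (blue) and the 3 dkk embryos (orange), with the marker shape giving the mating pair and letters above giving the Sox group. Only sox2.1 has all dkk embryos (54.2 to 77.7 CPM) above all controls (46.1 to 50.8 CPM); CPM are not divided by transcript length, so heights compare embryos within a row, not rows with each other.

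The neural gene sox2 was the Sox row nearest to a call. sox2.1 was read at 47.3, 50.8 and 46.1 CPM in controls 1 to 3 and at 77.7, 73.1 and 54.2 CPM in their dkk siblings. Every dkk embryo lay above every control, and the smallest step was that of pair 3. The log2 fold change was 0.49 ± 0.14 (SE), a 1.41-fold difference with a 95% interval from 0.17 to 0.81 on the log2 scale, and it did not pass (edgeR adjusted p = 0.306). Groups that do not overlap, with dkk higher, were found for 1 of the 22 Sox rows and for 2.66% of all genes; with dkk lower, for 0 Sox rows and 2.89% of genes. Without pair 3 the log2 fold change was 0.63 and passed (edgeR adjusted p = 0.0471), in a fit where 3.03% of all genes passed. Without pair 1 it was 0.37 and without pair 2 0.47, and neither passed (edgeR adjusted p = 1 and 0.824).

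The SoxB2 rows split between the 2 sox21-like genes. sox21-like.1.L was at 1.05, 1.63 and 1.42 CPM in controls and 1.50, 2.28 and 2.81 CPM in dkk embryos, from 18 to 62 reads. It was higher in 3 of 3 pairs with overlapping groups (log2 fold change 0.67 ± 0.31, SE; edgeR adjusted p = 0.668). Its homeolog sox21-like.1.S, at 0.48 to 1.22 CPM over all embryos, had a log2 fold change of 0.09. sox21-like.2.L stood at 12.1, 13.6 and 7.18 CPM in controls and 8.15, 6.80 and 11.9 CPM in the dkk siblings. Pairs 1 and 2 thus went down (-0.57 and -0.99 on the log2 scale) and pair 3 went up (0.72), for a fitted change of -0.28 ± 0.34 (SE). sox21-like.2.S followed the same order, with -0.52, -0.78 and 0.20 in pairs 1 to 3, and a fitted change of -0.37 ± 0.28 (SE; edgeR unadjusted p = 0.218).

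Both copies of sox11, the SoxC gene of the developing nervous system, had narrow intervals. sox11.L was at 209, 180 and 110 CPM in controls and 198, 157 and 120 CPM in dkk siblings. The siblings were close to each other and the mating pairs far apart. Its log2 fold change was -0.05 ± 0.11 (SE), with a 95% interval from -0.30 to 0.19, so that a fall of more than 1.23-fold lies outside it. sox11.S, at 90.7, 69.5 and 48.9 CPM in controls and 97.8, 66.8 and 70.5 CPM in dkk embryos, gave 0.19 ± 0.14 (SE; edgeR adjusted p = 0.837).

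**Figure D2:**
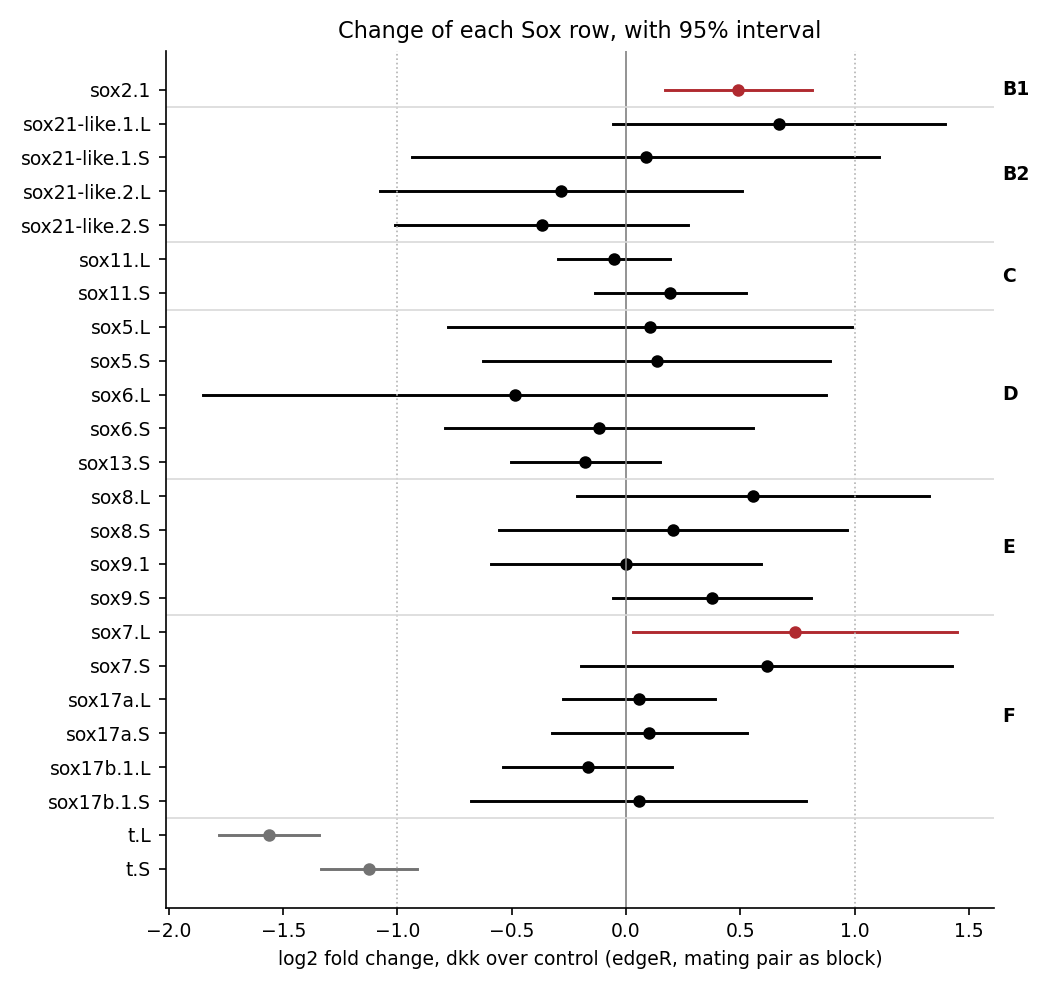
Log2 fold change of dkk over control embryos for each tested Sox row (points) with its 95% interval (lines) from edgeR with the mating pair as a block, not adjusted for the number of rows, grouped by Sox group. Red marks the 2 rows with an unadjusted p under 0.05, grey the copies of brachyury for scale, and dotted lines a 2-fold change; 14 of the 22 intervals lie within the dotted lines, and those of t.L and t.S do not include 0.

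Among SoxE genes, which act in the neural crest, the 4 tested rows had fitted changes from 0.00 to 0.56 and none passed. sox8.L was at 8.75, 9.79 and 8.24 CPM in controls and 12.4, 26.5 and 6.62 CPM in dkk embryos. The controls were alike and the dkk embryos spread out, with the embryo of pair 2 highest and that of pair 3 below all controls. The pair ratios were 0.50, 1.42 and -0.31 on the log2 scale and the fitted change 0.56 ± 0.33 (SE; edgeR adjusted p = 0.777). Without pair 2 it was 0.09 and without pair 3 0.99 (edgeR adjusted p = 1.00 and 0.115). sox9.S, a copy of the crest and cartilage gene sox9, was at 22.7, 16.1 and 13.7 CPM in controls and 25.7, 26.9 and 15.7 CPM in their siblings. It was higher in 3 of 3 pairs, with overlapping groups (0.38 ± 0.19, SE; edgeR adjusted p = 0.699). The other sox9 row, sox9.1, had a log2 fold change of 0.00 and pair ratios of -0.56, 0.13 and 0.44. sox8.S, at 18 to 38 reads per embryo, gave 0.20 ± 0.33 (SE).

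The endoderm genes sox17a and sox17b.1 lay close to 0 in all 4 rows, but their sibling pairs went opposite ways. sox17a.L stood at 138, 151 and 88.6 CPM in controls and 120, 142 and 122 CPM in dkk siblings. sox17a.S stood at 159, 154 and 82.4 CPM and at 139, 138 and 131 CPM in the same order. sox17b.1.L was at 88.5, 100.4 and 70.3 CPM in controls and 61.4, 85.8 and 83.6 CPM in dkk embryos. In each of these rows control 3 was the lowest control, and in pair 3 alone the dkk sibling was higher. sox17b.1.S was read at 110, 115 and 56.1 CPM in controls and 77.2, 98.3 and 106 CPM in dkk siblings, with the same order.

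**Figure D3:**
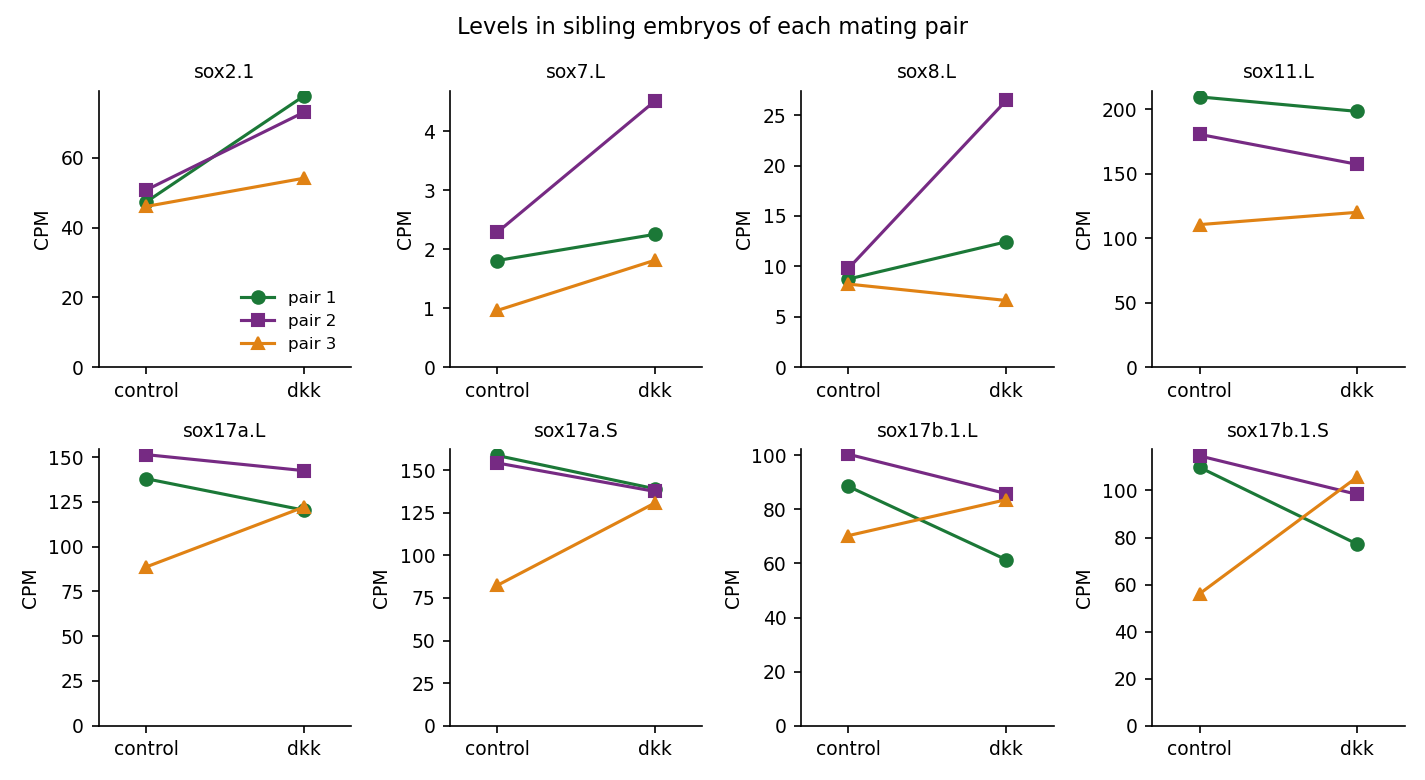
CPM of 8 Sox rows in control and dkk siblings, with 1 line per mating pair and axes from 0. Lines of sox2.1 and sox7.L rise in all 3 pairs, those of the 4 sox17 rows fall in pairs 1 and 2 and rise in pair 3, and those of sox11.L are ordered by mating pair.

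Summed over the 4 sox17 rows, the level was 495, 521 and 297 CPM in controls and 398, 464 and 442 CPM in dkk embryos, or 438 ± 122 and 435 ± 33.7 CPM (SD, n = 3). The fitted log2 fold changes were 0.06 ± 0.14 for sox17a.L, 0.10 ± 0.18 for sox17a.S, -0.17 ± 0.16 for sox17b.1.L and 0.05 ± 0.29 for sox17b.1.S (SE), with 95% intervals that together span -0.68 to 0.79. Their adjusted p-values ran from 0.887 to 0.988 (edgeR with Benjamini-Hochberg adjustment). Without pair 3 all 4 fits were negative, at -0.13, -0.17, -0.37 and -0.36 in the same order, and none passed. In that fit sox17b.1.L and sox17b.1.S had unadjusted p-values of 0.0205 and 0.0195 (edgeR; adjusted p = 0.179 and 0.173). There 3.03% of all genes passed. A pattern of lower in pairs 1 and 2 and higher in pair 3 was found in 9 of the 22 Sox rows and in 18.9% of all genes. In RefSeq genes of Xenopus_laevis_v10.1, read here for names and neighbours, sox17b.1 is the next gene after sox17a on both subgenomes. The 4 rows are similar genes whose reads may be split between them, so they do not count as separate evidence.

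Among other genes of endoderm formation, pair 3 also stood apart. Of 26 tested rows of that list, which holds Nodal ligands, Gata, Mix and forkhead factors, 22 had their highest ratio in pair 3, against 38.1% of all genes. The list's median ratio was -0.05, -0.09 and 0.67 on the log2 scale in pairs 1 to 3. Its part in the sox17 values was not tested. At an unadjusted p under 0.05 edgeR had 10 rows of this endoderm list higher and 1 lower, against 3.63% and 4.19% of all genes. In 3 of 3 pairs 10 rows were higher and 2 lower, against 13.4% and 13.9% of all genes. Groups did not overlap in 7 rows with dkk higher and 2 with dkk lower, against 2.66% and 2.89% of all genes. In this list hhex.L, which encodes an anterior endoderm homeobox factor, rose (log2 fold change 1.17 ± 0.16, SE; edgeR adjusted p = 0.0236), 0 fell and 25 did not pass, at a list median of 0.10. DESeq2 called 5 higher and 1 lower and limma-voom 1 higher. Over all genes edgeR called 0.106% higher and 0.467% lower. DESeq2 called 392 and limma-voom 145 of 21643, in either direction. Next in edgeR came hhex.S, at 0.94 ± 0.15 (edgeR adjusted p = 0.0506), which passed without pair 1 (0.0229), without pair 3 (0.0260, edgeR) and with DESeq2 (6.1e-05). It did not pass without pair 2 (0.168) or with no block (edgeR adjusted p = 0.473). The call of hhex.L was lost without pair 2 (edgeR adjusted p = 0.0787) and with no block (0.404). Both copies of cer1, of the same list, went the other way. cer1.L was at -1.84 ± 0.66 and cer1.S at -1.001 ± 0.261 (SE). Each was lower in 3 of 3 pairs with groups that did not overlap, and neither passed (edgeR adjusted p = 0.656 and 0.360).

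The other SoxF gene, sox7, was read at a low level and was higher in 3 of 3 pairs in both copies. sox7.L was at 1.81, 2.29 and 0.961 CPM in controls and 2.25, 4.51 and 1.81 CPM in dkk siblings, from 19 to 81 reads. sox7.S was at 2.04, 0.71 and 1.26 CPM and at 2.90, 1.73 and 1.41 CPM. The groups overlapped in both rows. The log2 fold changes were 0.74 ± 0.31 and 0.61 ± 0.35 (SE; edgeR adjusted p = 0.609 and 0.760). With the 2 copies summed, sox7 gave 0.67 ± 0.26 (SE; edgeR adjusted p = 0.595), and a 95% interval from 0.06 to 1.28. Over all genes, 13.4% were higher in 3 of 3 pairs, and 5 of the 22 Sox rows were: sox2.1, sox21-like.1.L, sox9.S, sox7.L and sox7.S. No Sox row was lower in 3 of 3 pairs, against 13.9% of genes.

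The SoxD rows gave fitted changes from -0.49 to 0.13, and none passed. sox13.S, whose product binds a Tcf factor in mouse T cells, was at 119, 98.2 and 66.2 CPM in controls and 82.9, 91.4 and 70.5 CPM in dkk embryos. It was lower in pairs 1 and 2, with a fitted change of -0.18 ± 0.14 (SE; edgeR adjusted p = 0.851). sox5.L and sox5.S had 19 to 103 reads per embryo and changes of 0.11 ± 0.38 and 0.13 ± 0.33 (SE). sox6.L and sox6.S had 6 to 54 reads and changes of -0.49 ± 0.59 and -0.12 ± 0.29 (SE). The interval of sox6.L, from -1.85 to 0.87, was the widest of the 22, and its ratio of -1.94 in pair 2 came from 29 reads in the control and 6 in the sibling.

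**Figure D4:**
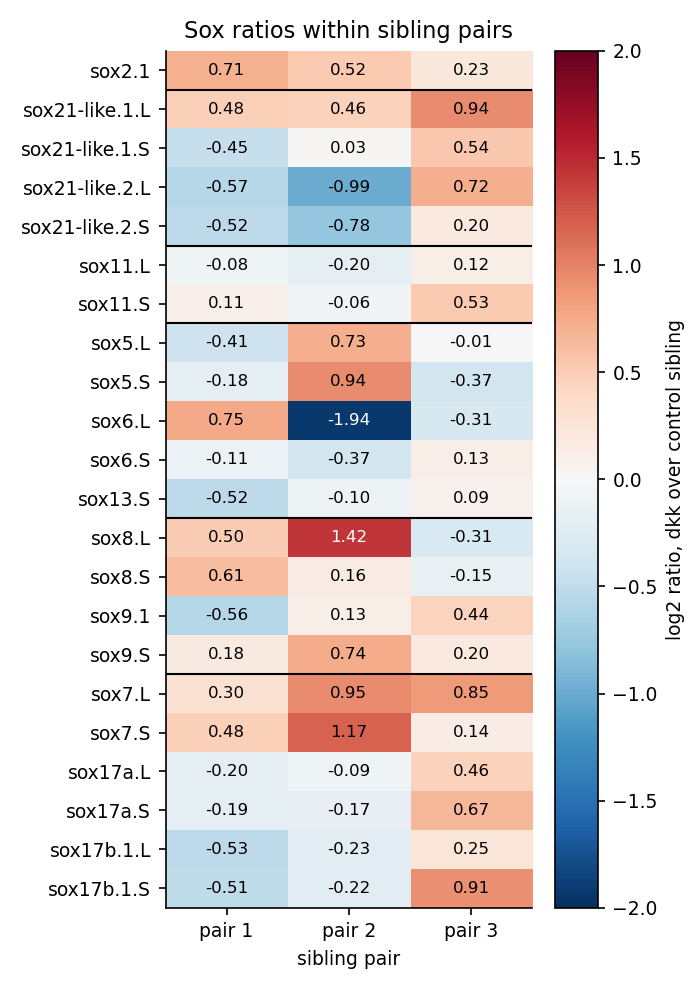
Log2 ratio of the dkk embryo over its control sibling (prior count of 2) for each tested Sox row (rows) in sibling pairs 1 to 3 (columns), with colour from -2 to 2 and lines between Sox groups. Pair 3 has the highest ratio in 13 of the 22 rows, and 5 rows are above 0 in all 3 pairs.

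The size of change that these embryos could show differed between rows. The 95% interval lay within a 2-fold change either way for 14 of the 22 Sox rows, against 70.2% of all tested genes. All 4 sox17 rows, both sox11 rows, sox13.S, sox2.1 and both sox9 rows were among them. The 8 others were the 4 sox21-like rows, both sox7 rows, sox8.L and sox6.L. For brachyury the interval of t.L, from -1.78 to -1.35, lay wholly outside such a range, and that of t.S, from -1.34 to -0.92, reached into it. Summed over classes of rows, the SoxF genes, classed here as endodermal (sox7, sox17 and sox18, 8 rows), came to 441 ± 123 CPM without and 440 ± 34.0 CPM with dkk (SD, n = 3). Nearly all of this sum was sox17, at means of 438 and 435 CPM. Neural Sox genes (sox2, sox11, sox14 and sox21-like, 9 rows) were at 303 ± 76.4 and 321 ± 62.3 CPM, and crest Sox genes (6 rows) at 34.0 ± 5.91 and 45.8 ± 16.7 CPM. Between siblings the endodermal sum changed by -0.31, -0.15 and 0.57 and the neural sum by 0.08, -0.05 and 0.28 on the log2 scale in pairs 1 to 3. Within the neural sum, sox11 changed by -0.02, -0.16 and 0.26, sox2.1 by 0.72, 0.53 and 0.23, and the SoxB2 rows by -0.49, -0.73 and 0.61. The crest sum was higher in 3 of 3 pairs, by 0.17, 0.89 and 0.07, most of it in pair 2. These sums were not tested.

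Among the Sox rows, sox11.L differed between mating pairs with treatment in the fit (edgeR quasi-likelihood test of the mating pair, adjusted p = 0.0121). Its pair means were 204, 169 and 115 CPM. It was the 1 of 22 Sox rows that passed, while 22.2% of all genes did. With 1 embryo per treatment and mating, whether such a difference depends on treatment could not be tested. Mating and anything else shared by same-numbered embryos cannot be told apart. sox11.S had pair means of 94.3, 68.2 and 59.7 CPM and just missed (edgeR adjusted p = 0.0545). sox7.L (0.0827), sox13.S (0.0908) and sox9.S (0.102) followed, all adjusted p-values from edgeR. Without pair 3 the call of sox11.L was lost (adjusted p = 0.107) and that of sox11.S gained (0.0390, edgeR). Control 3 was the lowest control in 16 of the 22 Sox rows, against 34.3% of all genes, and its Sox reads were 0.0654% of its reads in genes against 0.0876% to 0.102% in the 5 other embryos.

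The L and S copies of a gene did not differ detectably in their response. For 9 Sox genes with both copies past the filter, the log2 ratio of L to S was compared between dkk and control embryos (limma on the ratios of 4549 homeolog pairs, mating pair as a block). None of the 9 passed with limma, while 0.0220% of all homeolog pairs did. At an unadjusted p under 0.05 there were 0 of the 9, against 8.84% of all pairs. sox11 came nearest, with L holding 69.8%, 72.2% and 69.3% of the reads of both copies in controls and 67.0%, 70.2% and 63.0% in dkk siblings. The L share was lower in each dkk sibling, and the log2 ratio changed by -0.25 ± 0.11 (SE; limma adjusted p = 0.566; 95% interval -0.49 to 0.00). sox17b.1 changed by -0.23 ± 0.15, almost all of it in pair 3 (-0.66, against -0.02 and 0.00 in pairs 1 and 2), and sox21-like.1 by 0.59 ± 0.44 (SE; limma adjusted p = 0.739 and 0.776). The share of reads by copy is not divided by transcript length.

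**Figure D5:**
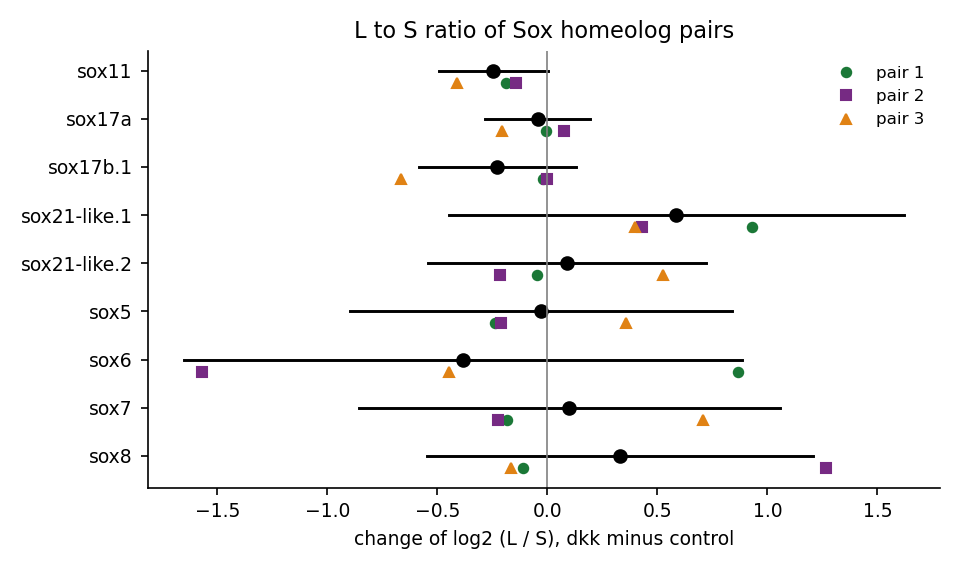
Change of the log2 ratio of L to S reads in dkk embryos against controls for the 9 Sox genes with both copies tested, as the limma estimate (black point) with its 95% interval (line) and the change in each sibling pair (coloured markers, prior count of 2). All 9 intervals include 0; those of sox17a and sox11 are the narrowest.

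Genes that work with Sox factors in the same tissues were read from lists chosen with earlier results of these data known. Of 21 tested neural plate rows (Zic, Irx, Pou5f3, geminin and others), 1 fell, 0 rose and 20 did not pass, at a median log2 fold change of -0.11 against 0.00 over all genes. irx3.S, an Iroquois homeobox gene of the posterior neural plate, went from 8.03 ± 2.03 CPM to 2.34 ± 0.147 CPM (SD, n = 3; -1.74 ± 0.25, SE; edgeR adjusted p = 0.0323). Its homeolog irx3.L, at -1.46 ± 0.27, did not pass (edgeR adjusted p = 0.0869), but it passed without pair 3 (0.0124), with no filter (0.0033, edgeR) and with DESeq2 (8.4e-05). Nor did irx3.L pass with no block, without pair 1 or without pair 2 (edgeR adjusted p = 0.136 and 0.346 for these last). The call of irx3.S was lost without pair 1 (0.0686), without pair 2 (0.160), with no block (0.252) and with both copies summed (edgeR adjusted p = 0.0555). DESeq2 called 3 rows of the list lower and limma-voom 1, with 0 higher. Over all genes edgeR called 0.467% lower and 0.106% higher. At an unadjusted p under 0.05 edgeR had 0 rows of the list higher and 4 lower, against 3.63% and 4.19% of all genes. In 3 of 3 pairs 1 row was higher and 5 were lower, against 13.4% and 13.9% of all genes.

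Of the 19 gene names on the crest and neural border list, 9 had a row. The others, among them snai2, tfap2a and pax3, had no row under those names. Of 15 tested crest and neural border rows 0 passed with edgeR, while DESeq2 called 4 lower and limma-voom 2 lower, with 0 higher. Over all 21643 genes DESeq2 called 392 and limma-voom 145, in either direction. The median was -0.50, and 3 were higher and 5 lower at an edgeR unadjusted p under 0.05, against 3.63% and 4.19% of all genes. The border homeobox gene msx2.L was at -2.22 ± 0.38 and tfap2b.L, of the AP-2 family, at 1.98 ± 0.46 (SE; edgeR adjusted p = 0.158 and 0.173). tfap2b.L was higher in 3 of 3 pairs but very weakly read, with a mean of 0.25 CPM without dkk and 1.02 CPM with it. Its homeolog tfap2b.S was at 0.50 ± 0.43 (SE; edgeR adjusted p = 0.867), with pair ratios of 1.35, 0.69 and -0.58. With both tfap2b copies summed the change was 0.81 (edgeR adjusted p = 0.684). msx2.L was lower in 3 of 3 pairs and passed with DESeq2 (0.0011), with limma-voom (0.0325), without pair 2 (0.0152) and without pair 3 (edgeR adjusted p = 0.0453). It did not pass without pair 1, with no block (0.797) or with no filter (edgeR adjusted p = 0.618). With both msx2 copies summed the change was -2.41 and did not pass (edgeR adjusted p = 0.411). msx2.S was at -2.73, msx1.L at -2.34 and msx1.S at -2.49, each lower in 3 of 3 pairs. None of them passed (edgeR adjusted p = 0.534, 0.381 and 0.420). foxd3.L and foxd3.S, of the same list, went the other way, at 0.65 ± 0.19 and 0.89 ± 0.24 (SE). Both were higher in 3 of 3 pairs and neither passed (edgeR adjusted p = 0.339 and 0.274). In the list 3 rows were higher and 5 lower in 3 of 3 pairs, against 13.4% and 13.9% of all genes. In 10 tested epidermal rows krt18.S rose (0.80) and tp63.S, the epidermal p63 factor, fell (-2.71), with 8 not past the threshold and a median of 0.43. The call of krt18.S was lost without pair 2 (0.160), with no block (1.00) and with both copies summed, where the change was 0.48 (edgeR adjusted p = 0.128). That of tp63.S was lost with no block (edgeR adjusted p = 0.252). By comparison 8 of 19 Wnt feedback rows and 6 of 14 gastrula mesoderm rows fell and 0 rose, at medians of -0.98 and -1.66. Over all genes edgeR called 0.467% lower and 0.106% higher. Without pair 2, 4 of those 8 calls and 3 of those 6 were lost. The members with the smallest p were sp5.S and kremen2.L in the first list and t.L and myf5.L in the second.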

How the data were processed

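Polyadenylated RNA of 6 single embryos was sequenced from Illumina TruSeq libraries, per the labels' protocols. The authors deposited raw read counts per gene; per the submitters' processing notes the tools included HTSeq, TopHat2 and SAMtools. Versions and genome build: not given in the sources used here. Rows that name no gene held 25.6% to 28.2% of counted reads (reads with several alignments 15.9% to 17.6%) and were left out, so near-identical copies may lose or share reads. The authors' deposited table of 97 genes holds, per the file headers, a baseMean (signal), log2 fold changes with standard errors, a test score and p-values; it was used only to look for Sox rows.

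Counts were fitted in R 4.3.3 with edgeR 4.0.16 (TMM, filterByExpr with minimum count 10 and total 15, robust quasi-likelihood F test) with the mating pair as a block, over all 21643 genes past the filter, at a Benjamini-Hochberg adjusted p of 0.05. Standard errors and 95% intervals are those implied by the F statistic. Same-numbered embryos are siblings, per the series' design text; deviations from group means correlated at 0.674, 0.552 and 0.622 within pairs and at most -0.152 between them. The p-values of the dkk test set the mean dkk effect over 3 sibling pairs against the variation left after the block, moderated across genes. With 1 embryo per treatment and mating, variation of the effect between matings and variation between embryos cannot be told apart. CPM are counts scaled to TMM library sizes; pair ratios used a prior count of 2. The L to S ratio was tested with limma 3.58.1 (moderated test with trend, robust). Functions were tested on simulated data. Alternatives were no block, other scalings, DESeq2 1.42.0, limma-voom, other filters, summed copies, another prior count and each pair left out.

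The members, lists and rules were chosen with earlier results of these data known. Every Sox row is named. Of other lists, members past the threshold and the 2 with the smallest p are named (some only by name). Others named beside them include tfap2b.S, msx2.S and both copies of msx1, of foxd3 and of cer1. Of 28 Sox rows, 21 matched a RefSeq symbol. The rows without a match were sox2.1, sox9.1, sox6.L and all sox21-like rows. Sox groups were assigned by row name.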

Additional observations from a re-analysis of the deposited data

How the results depend on the processing

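The count of 0 Sox rows changed in dkk embryos held under every alternative run except without pair 3, where it was 1 (sox2.1); with 1 pair left out it ran from 0 to 1. With no replicate block it was also 0, with 1 row at an unadjusted p under 0.05. Of the 18 called rows in the other gene lists, 15 lost their call with no replicate block, 10 without pair 2 and 3 with both copies summed (irx3.S, krt18.S and sp5.S). Over all genes 124 passed, against 14 with no replicate block, 343 with no filter, 392 with DESeq2 and, with 1 pair left out, 58 to 659, the highest without pair 3. With both copies summed 84 of 17278 passed. For the L to S ratio 1 homeolog pair passed, against 7 without pair 2 and 324 without pair 3. The count of rows differing between mating pairs (1) was 3 with no filter (sox11.L, sox11.S and sox13.S) and ran from 1 to 2 with 1 pair left out. None of the 9 L to S ratios passed under any alternative run. Signs of some uncalled rows turned; the cause was not tested. The log2 fold change of sox9.1 was -0.0331 with no replicate block, -0.0056 with limma-voom, -0.0084 with no filter and -0.0014 in the fit of summed copies, where sox11 stood at 0.0237 and sox17b.1 at -0.0572. Rows whose sign turned with 1 pair left out had these ranges of log2 fold change over the 3 such fits: sox17b.1.L -0.368 to 0.00679, sox8.S -0.00322 to 0.406, sox11.L -0.131 to 0.0149, sox21-like.2.L -0.778 to 0.0758, sox5.L -0.241 to 0.390, sox5.S -0.286 to 0.400, sox6.L -1.25 to 0.259, sox6.S -0.248 to 0.00874, sox9.1 -0.211 to 0.283, sox17a.L -0.134 to 0.182, sox17a.S -0.170 to 0.245, sox17b.1.S -0.358 to 0.34. For the change of the L to S ratio the ranges were sox5 -0.225 to 0.0742, sox6 -1.01 to 0.212, sox8 -0.138 to 0.579, sox17a -0.106 to 0.0354, sox21-like.2 -0.130 to 0.241, sox7 -0.200 to 0.262. Of the rows whose sign turned, sox5.L, sox6.L, sox6.S and sox8.S had under 100 reads in every embryo. So did both sox7 and both sox21-like.1 rows, whose log2 fold change kept its sign in every fit that held them. sox17a.L, whose sign turned, had 1752 to 2782 reads. The part of depth in these results was not tested.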
